A study of Mus musculus with 12 samples.

Results

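Transcript levels were compared between germline stem cell-like cells (GSCLCs) derived under 2 temperature regimes, called condition 1 and condition 2. GSCLCs are cultured cells that resemble spermatogonial stem cells, here taken from reconstituted testes, which are aggregates of germ cells and testicular cells kept in culture. In condition 1 the reconstituted testes spent 3 weeks at 34°C, and lines GSCLC_1 and GSCLC_4 were obtained from them. In condition 2 they spent 2 weeks at 37°C followed by 1 week at 34°C, which gave lines GSCLC_2 and GSCLC_3. The comparison used 8 of the 12 libraries of the series, 4 per condition, and the 11453 of 26219 listed genes that reached 5 RPM (reads scaled to a common library total) in at least 2 of those 8. The other 4 libraries come from GSC_1 and GSC_2, germline stem cell lines from testes at postnatal day 7, and served only to help estimate the spread between lines and as a reference level.

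All lines share the C57BL/6 x 129/SvJcl background and the AcrAct_EGFP reporter, and all were grown in one medium with 1% fetal bovine serum, GDNF, bFGF, LIF and EGF. The temperature difference was applied to the reconstituted testes from which the lines came. The labels give no temperature for the culture of the lines afterwards. Each condition is represented by 2 lines with 2 culture replicates each, so the line was taken as the unit. The labels state separate testes of origin for the GSC lines, and they do not say so for the GSCLC lines. RNA was measured by SC3-seq, which amplifies cDNA from 1 ng of total RNA and sequences the 3′ ends of transcripts.

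In mammals with a scrotum the testis is kept cooler than the body core, and spermatogenesis is impaired at core temperature. Cells exposed to heat activate the transcription factor HSF1, which binds heat shock elements in promoters of chaperone genes, while mild cooling induces RNA-binding proteins such as Cirbp and Rbm3. Spermatogonial stem cells renew themselves under GDNF, which signals through the receptor Ret and its co-receptor Gfra1, and they turn on Kit and Stra8 when they differentiate under retinoic acid.

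Low values in the 8 libraries rise in even steps of 0.236 to 0.33 RPM, which imply a depth of 3032141 to 4230118 reads per library. Of the values up to 20 steps, 99.8% to 99.9% were whole multiples of a step within 0.1. The limit that 3 reads set was 0.709 to 0.989 RPM and covers counting error only. Germ cell identity held in each library, with the germ cell gene Dazl, a translational regulator, at 1312 to 1559 RPM and the germ cell helicase gene Ddx4 at 464 to 566 RPM. The Sertoli cell genes Amh, Cst9 and Cst12, the Leydig cell genes Cyp17a1, Hsd3b1, Hsd3b6 and Lhcgr, and the spermatid genes Prm1, Prm2 and Tnp2 were listed at 0 in all 8. Other markers of these cells were detected, with 6 of 18 Sertoli, 3 of 16 Leydig and peritubular and 5 of 20 spermatid markers past the filter. Among them the Sertoli markers Ctsl and Trf reached 345 and 81.7 RPM, the peritubular markers Acta2 and Pdgfra 44.7 and 22.5 RPM and the spermatid marker Odf2 33.1 RPM. The Sertoli list summed to 298 to 389 RPM in condition 2 and 319 to 351 RPM in condition 1, the Leydig and peritubular list to 29.3 to 46.7 RPM and 38.5 to 72.1 RPM and the spermatid list to 56.3 to 77.5 RPM and 56.4 to 78.7 RPM. Fibroblast markers were detected, with 19 of 22 past the filter and a summed level of 484 to 822 RPM for condition 2 and of 534 to 863 RPM for condition 1. The part of these cells in the results was not tested, and in bulk RNA fewer cells of a type and less RNA per cell cannot be told apart. Line GSCLC_3 stood apart on chromosome 8, and lines GSCLC_2 and GSCLC_4 on the distal part of chromosome 6, as described below with the values without those genes. In GSCLC_4, 88 of 7517 genes of at least 20 RPM were lower by 2-fold or more in replicate 1 than in replicate 2 and 48 were higher, against 6 to 39 lower and 8 to 58 higher in the other 3 lines.

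No gene passed the test between conditions. Limma on the line means of log2(RPM + 1) called 0 of 11453 genes at a Benjamini-Hochberg adjusted p under 0.05 (0%), and the smallest adjusted p was 0.929. At an unadjusted p under 0.05 there were 539 genes (4.71%), of which 149 were higher and 390 lower in condition 2. Limma on single libraries, with the libraries of a line treated as correlated, also called 0 genes, with a smallest adjusted p of 0.468. Every gene named below therefore has a limma adjusted p of 0.929 or more, and its log2 difference, condition 2 minus condition 1, is a description with its SE from the fit on line means. The GSC lines, which enter that SE, lay closer together (Euclidean distance 37.5) than the lines of condition 1 (50.3) or condition 2 (55.8). The SE may thus be too small for the GSCLC lines. The median SE of a log2 difference was 0.23, and 90% of genes had a difference between -0.56 and 0.38. All fold changes are on the log2(RPM + 1) scale, which understates those of low genes.

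In 610 genes the 4 libraries of one condition did not overlap with the 4 of the other. Of these, 151 were higher (1.32% of the genes tested) and 459 lower (4.01%) in condition 2, and 4 of the 151 and 43 of the 459 differed by 2-fold or more. The majority of lower genes, 75.2% of the 610, rests on the scaling to RPM. With median-of-ratios scaling the counts were 269 higher and 280 lower, and with quantile normalisation 227 higher and 302 lower. In RPM the median log2 difference of all genes was -0.07, and with median-of-ratios scaling it was 0.0025, so small differences of either sign are best read against that median. Leaving out each of the 8 libraries in turn gave 877 to 1146 such genes, since fewer libraries then have to separate. Replicates of a line are separate cultures of it per the labels, and they are not separate derivations.

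The spread between lines of one condition lay within that between lines of different conditions. The median absolute log2 difference was 0.25 between GSCLC_4 and GSCLC_1, both of condition 1, and 0.26 between GSCLC_3 and GSCLC_2, both of condition 2. Between single lines of different conditions it was 0.20 for GSCLC_2 and GSCLC_1, 0.22 for GSCLC_3 and GSCLC_1, 0.24 for GSCLC_2 and GSCLC_4 and 0.32 for GSCLC_3 and GSCLC_4, and between culture replicates of one GSCLC line 0.20 to 0.25. Across genes, which are not independent replicates, Pearson's r averaged 0.955 over the 16 pairs of libraries from different conditions, 0.953 over the 4 pairs of different condition 1 lines and 0.947 over the 4 pairs of different condition 2 lines. The shortest Euclidean distance between GSCLC lines joined GSCLC_2 and GSCLC_1 at 43.5, and the longest joined GSCLC_3 and GSCLC_4 at 62.7. Both of these pairs cross the conditions.

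Single lines were then compared with limma on single libraries, where the spread is that of cultures of one line, so the p-values speak for those lines and not for the conditions. Within condition 1, GSCLC_4 and GSCLC_1 differed in 292 genes (2.55%), and within condition 2, GSCLC_3 and GSCLC_2 differed in 678 (5.92%). Across conditions the counts were 142 (1.24%) for GSCLC_2 against GSCLC_1, 67 (0.585%) for GSCLC_2 against GSCLC_4, 163 (1.42%) for GSCLC_3 against GSCLC_1 and 1348 (11.8%) for GSCLC_3 against GSCLC_4. The last contrast held 969 of its 1348 genes in the lower direction. No gene passed in the same direction in all 4 contrasts across conditions, whereas 4 passed in 3 of them, all lower in condition 2. These contrasts share lines, so their counts are not independent.

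**Figure D1:**
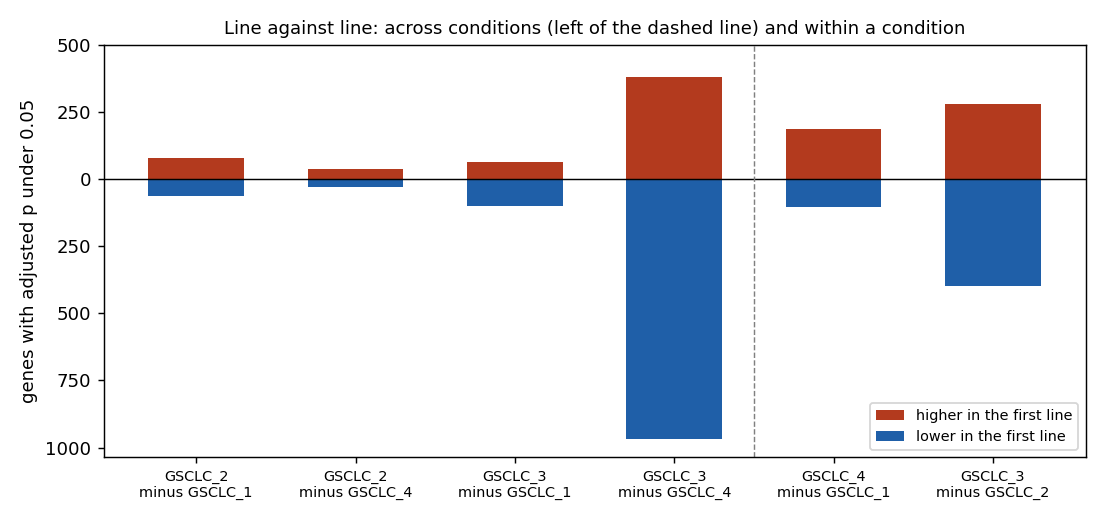
Number of genes with an adjusted p under 0.05 in each contrast of single GSCLC lines (limma on 2 culture replicates per line), with genes higher in the first-named line drawn upward and lower ones downward. The 4 contrasts across conditions reached 67 to 1348 genes and the 2 within a condition 292 and 678.

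The 4 genes that were lower in 3 of the 4 contrasts were Hmgb3, Barhl2, Nlrp4c and LOC100862018. Hmgb3 encodes a chromatin protein of the high mobility group and lies on the X chromosome. It stood at 175 and 170 RPM in GSCLC_2 and 178 and 196 RPM in GSCLC_3, against 281 and 294 RPM in GSCLC_1 and 272 and 252 RPM in GSCLC_4. All condition 2 libraries were below all condition 1 libraries, and the replicates of a line lay close together, with a log2 difference of -0.61 ± 0.14. It was lower in all 4 contrasts with quantile normalisation, the only gene to be so. The GSC libraries ranged from 178 to 252 RPM and overlapped with both conditions. Of the 50-base words in the last 300 bases of its transcripts, 51% also occur at other loci, so its value is uncertain. Nlrp4c, an NLR family gene known from oocytes, ranged from 80.6 to 135 RPM in condition 2 and from 131 to 179 RPM in condition 1, and the groups overlapped through one library of GSCLC_3. LOC100862018, whose locus was not matched, ranged from 1.25 to 5.93 RPM in condition 2 and from 8.27 to 14.2 RPM in condition 1 without overlap.

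Among the genes that were higher in every condition 2 library, the 12 with the largest log2 difference and at least 20 RPM in condition 2 were led by Cd109, a surface protein that binds TGF-beta. Cd109, on chromosome 9 at 78615546 to 78716260 (GRCm38), stood at 37.6 and 20.6 RPM in GSCLC_2 and 48.1 and 33.4 RPM in GSCLC_3, against 15.1 and 12.8 RPM in GSCLC_1 and 11.3 and 13.2 RPM in GSCLC_4. Both condition 2 lines were high, although their replicates differed, and the condition 1 libraries were all below 16 RPM. The line means were 34.9 ± 8.23 RPM and 13.1 ± 1.21 RPM (SD, n = 2 lines each), a log2 difference of 1.3 ± 0.25 with an unadjusted p = 0.000438 and an adjusted p = 0.929 by limma. The GSC libraries, at 15.8 to 25.4 RPM, were above those of condition 1 and overlapped with condition 2. Cd109 was also the gene with the largest difference of the 12, and it lay between 1.04 and 1.55 when each line was left out in turn.

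Slc25a5 encodes an ADP/ATP carrier of the inner mitochondrial membrane. It stood at 379 and 405 RPM in GSCLC_2 and 370 and 360 RPM in GSCLC_3, against 257 and 291 RPM in GSCLC_1 and 201 and 218 RPM in GSCLC_4. The condition 2 libraries were close to each other and all above condition 1, and the log2 difference was 0.66 ± 0.15. Of its end words, 18.3% are shared with another locus. Zfp414, a zinc finger gene with 21.7% shared end words, ranged from 22.9 to 32.6 RPM in condition 2 and from 15.8 to 20.0 RPM in condition 1 (0.70 ± 0.22). Amigo2, a cell adhesion protein with leucine-rich repeats, ranged from 15.9 to 30.0 RPM and from 8.27 to 14.2 RPM (0.82 ± 0.25).

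In another 3 of the 12 the difference was smaller without GSCLC_4 replicate 1, the lowest library of each. The same library was the lowest for Gas6, Asna1 and Gadd45gip1, described below, whose differences without it were 0.44, 0.47 and 0.42. Cnih4, which takes part in export of receptors from the endoplasmic reticulum, stood at 200 to 224 RPM in condition 2, at 153 and 184 RPM in GSCLC_1 and at 44.3 and 190 RPM in the replicates of GSCLC_4. Its log2 difference of 0.80 ± 0.23 became 0.28 without that library. Smg5, a factor of nonsense-mediated decay, had 85.2 to 97.0 RPM in condition 2 and 26.6, 60.7, 74.5 and 84.9 RPM in condition 1, and its difference went from 0.71 to 0.42 without GSCLC_4 replicate 1. Gtse1, a mitotic microtubule-binding protein, was at 22.8 RPM in that library against 42.2 to 64.5 RPM in the rest of condition 1 and 67.9 to 79.7 RPM in condition 2, and its difference went from 0.75 to 0.53 without that library. Without the whole of line GSCLC_4 the log2 differences were 0.37 for Cnih4, 0.23 for Smg5 and 0.28 for Gtse1.

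Of the 12, 5 lie on chromosome 8, which holds 5.37% of the genes tested, and 4 of these are described here. They are Gas6, a ligand of TAM receptor kinases, Fam38a, an older symbol of the mechanosensitive channel gene Piezo1, Asna1, which inserts tail-anchored proteins into membranes, and Gadd45gip1, a mitochondrial ribosome subunit. Gas6 stood at 22.3 and 26.6 RPM in GSCLC_2 and 29.4 and 23.5 RPM in GSCLC_3, against 7.51 to 21.3 RPM in the condition 1 libraries. The groups did not overlap, although GSCLC_1 replicate 2 came close to condition 2 (0.75 ± 0.32). Fam38a had 31.6 to 37.6 RPM in condition 2 and 16.5 to 25.4 RPM in condition 1. Asna1 ranged from 81.7 to 107 RPM and from 38.3 to 81.0 RPM (0.65 ± 0.22). Gadd45gip1 ranged from 136 to 163 RPM and from 62.9 to 117 RPM (0.64 ± 0.16). GSCLC_3 exceeded GSCLC_2 by a log2 difference of 0.10 for Gas6, 0.02 for Fam38a, 0.18 for Asna1 and 0.008 for Gadd45gip1. GSCLC_4 minus GSCLC_1 was -0.51, -0.56, -0.53 and -0.30 in the same order. Antisense transcripts overlap the ends of Gadd45gip1 (100% of words) and Fam38a (60%, shared with Ctu2). Whether the counting used strand is not stated in the labels or notes, and the values of both genes are uncertain for that reason.

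Among the genes that were lower in every condition 2 library, the 12 with the largest log2 difference and at least 20 RPM in condition 1 began with 4 genes in which a single line stood apart. Rhox5, an X-linked homeobox gene of the reproductive tract, stood at 69.4 and 68.3 RPM in GSCLC_4 and between 1.5 and 3.42 RPM in the other 6 libraries. GSCLC_1, of the same condition, was thus near condition 2, and without GSCLC_4 the log2 difference went from -2.49 ± 1.0 to -0.45. AU022751 stood at 3.68 and 1.35 RPM in GSCLC_3 against 30.0 to 46.3 RPM in the other lines. Gm14511 showed the same arrangement, at 3.39 and 3.77 RPM in GSCLC_3 and 29.3 to 40.8 RPM elsewhere. Both are X-linked, and without GSCLC_3 their differences were -0.43 and -0.26. Mageb17-ps was low in GSCLC_2, at 1.00 and 2.87 RPM, against 15.0 to 27.1 RPM in the other 3 lines, and its difference without GSCLC_2 was -0.41.

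In the other 8 genes, as in the first 4, both condition 2 lines were below both condition 1 lines. The choice of genes without overlap fixes this in advance. With each line left out in turn, the weakest log2 differences were -1.10 for Gng2, -1.05 for Bcar3 and -0.90 for Barhl2. Gng2, a G protein gamma subunit, stood at 13.5 and 7.30 RPM in GSCLC_2 and 7.63 and 2.96 RPM in GSCLC_3, against 16.5 and 22.5 RPM in GSCLC_1 and 27.6 and 25.1 RPM in GSCLC_4 (-1.55 ± 0.36). Bcar3, an adaptor of integrin signalling, ranged from 5.93 to 12.8 RPM in condition 2 and from 16.8 to 30.3 RPM in condition 1 (-1.35 ± 0.30). For both genes the difference between the condition means was larger than that between the lines of either condition, while 40.5% and 25.4% of their end words overlap other transcripts, mostly antisense. Barhl2, a homeobox gene of neural development, stood at 17.3 and 16.4 RPM in GSCLC_2 and 9.61 and 14.0 RPM in GSCLC_3, against 46.5 and 28.8 RPM in GSCLC_1 and 31.6 and 25.4 RPM in GSCLC_4. No end words of Barhl2 are shared, and its log2 difference was -1.15 ± 0.25. It also was 1 of the 4 genes that passed in 3 line contrasts, and the GSC libraries, at 46.3 to 69.9 RPM, overlapped with condition 1 through GSCLC_1 replicate 1.

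The last 4 of the lower genes, apart from Hspa2, which is described with the heat shock genes, span several functions. Mest, a paternally expressed imprinted gene, stood at 106 and 102 RPM in GSCLC_2 and 67.8 and 28.3 RPM in GSCLC_3, against 138 and 128 RPM in GSCLC_1 and 167 and 135 RPM in GSCLC_4. GSCLC_3 was the lowest line and its replicates differed most (-1.05 ± 0.36). Without GSCLC_3 the difference of Mest was -0.44. Aldh1a2, an enzyme that makes retinoic acid, ranged from 7.35 to 18.6 RPM in condition 2 and from 20.0 to 32.6 RPM in condition 1 (-1.04 ± 0.34). Gcnt4, a glycosyltransferase gene, ranged from 8.09 to 21.3 RPM and from 26.7 to 35.0 RPM (-1.0 ± 0.28), with an antisense transcript over its whole end. Apba3, an adaptor protein gene, ranged from 12 to 23.5 RPM and from 24.5 to 73.6 RPM (-1.05 ± 0.33), the highest value being that of GSCLC_4 replicate 1. For Apba3 and Aldh1a2 the highest condition 2 library came close to the lowest of condition 1. Without GSCLC_3 the differences of Aldh1a2 and Gcnt4 were -0.57 and -0.59, and without GSCLC_4 that of Apba3 was -0.58.

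**Figure D2:**
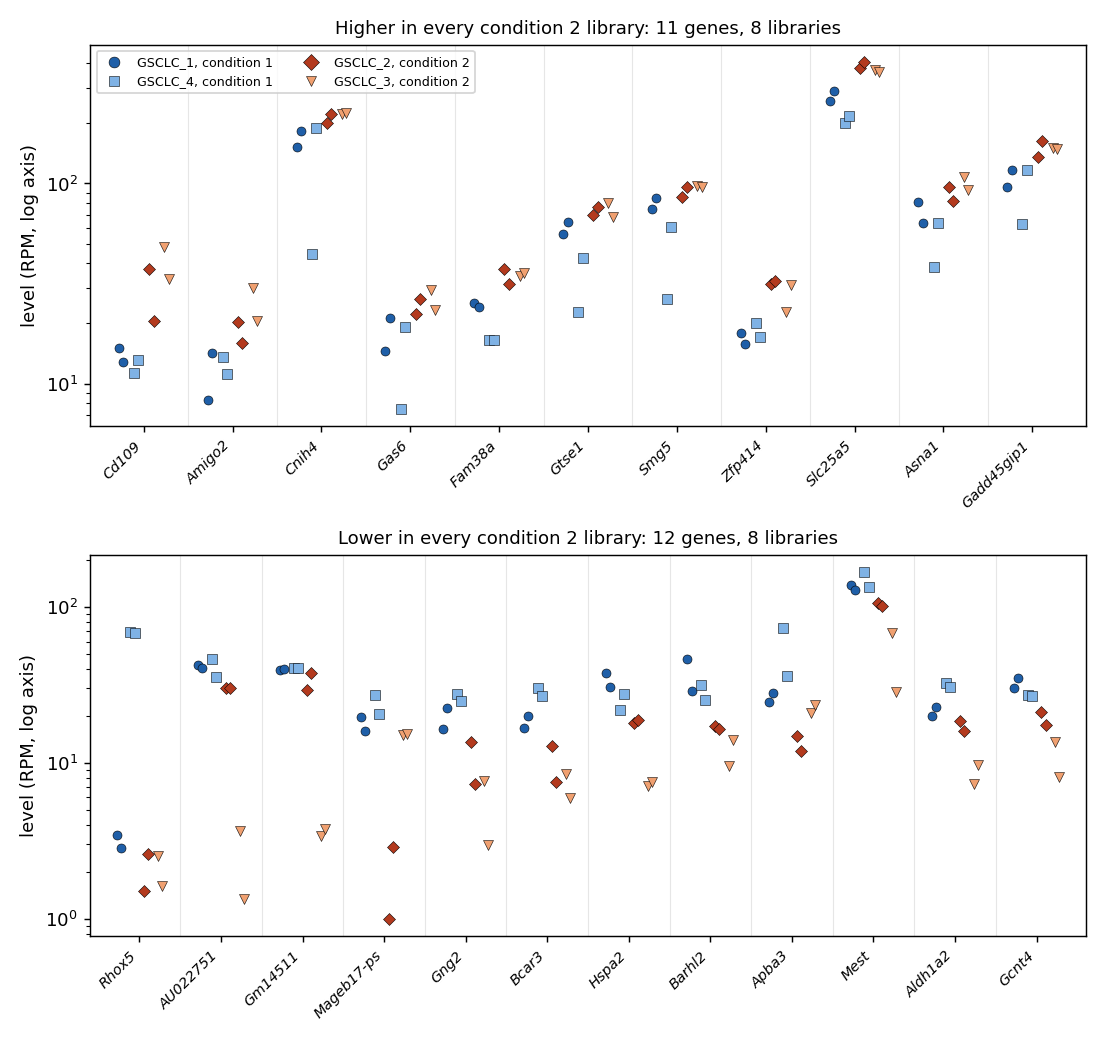
Level in RPM (log axis) of the genes described among the 12 with the largest log2 difference in each direction and no overlap between the libraries of the conditions, with 1 point per library and 2 points per line. Rhox5 is high in GSCLC_4 alone, at about 68 to 69 RPM, while Cd109 is higher in both condition 2 lines.

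The temperature regimes differ by a period at 37°C, so the heat shock proteins and their co-chaperones were examined next. Of 40 tested members 0 passed the test, 1 was higher in every condition 2 library (Hspa1b, 2.5% of the list against 1.32% of all genes) and 4 were lower in every one (Hspa2, Hspa4, Hspa12a and Cacybp, 10% against 4.01%). The list's median log2 difference was -0.08, against -0.07 for all genes, and 0.001 with median-of-ratios scaling, against 0.0025 for all genes. The summed level overlapped, at 16719 to 19090 RPM in condition 2 and 18373 to 20443 RPM in condition 1.

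Hspa2 encodes the HSP70 family member that meiotic cells and spermatids express at a high level. On chromosome 12 at 76403812 to 76406938 (GRCm38), it stood at 18.1 and 18.8 RPM in GSCLC_2 and 7.07 and 7.55 RPM in GSCLC_3, against 37.7 and 30.5 RPM in GSCLC_1 and 21.8 and 27.7 RPM in GSCLC_4. Replicates of a line were close to each other, the 2 lines of condition 2 differed from each other, and all of their libraries were below those of condition 1. The line means were 12.9 ± 7.86 RPM and 29.4 ± 6.6 RPM (SD, n = 2 lines each), with a log2 difference of -1.23 ± 0.37, an unadjusted p = 0.00758 and an adjusted p = 0.929 by limma. Without GSCLC_3 the difference was -0.62. The GSC libraries, at 17.5 to 28 RPM, overlapped with both conditions.

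The stress-inducible HSP70 genes Hspa1a and Hspa1b lie side by side on chromosome 17 and encode nearly the same protein. Their transcripts could be told apart at the 3′ end, where no 50-base word is shared. Hspa1b stood at 11.5 and 8.87 RPM in GSCLC_2 and 10.7 and 8.90 RPM in GSCLC_3, against 7.70 and 5.91 RPM in GSCLC_1 and 8.52 and 1.65 RPM in GSCLC_4. The groups were separated by less than 1 RPM, which a few reads make up, and the log2 difference of 0.81 ± 0.35 was 0.35 without GSCLC_4 replicate 2. Hspa1a stood at 11 to 14 RPM in condition 2 and 8.77 to 17.2 RPM in condition 1, with overlap and a difference of 0.06 ± 0.26.

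The promoters of these genes are shown because heat shock elements there are the known binding sites of HSF1. The windows below are from RefSeq on GRCm38.p6, written 5′ to 3′ on the strand of the gene, with capitals marking matches to GAANNTTC, a pattern that reads the same on both strands.
Hspa1a: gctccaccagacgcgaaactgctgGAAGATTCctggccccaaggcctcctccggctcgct
Hspa1b: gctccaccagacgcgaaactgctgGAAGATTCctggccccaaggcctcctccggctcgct
Hspb1: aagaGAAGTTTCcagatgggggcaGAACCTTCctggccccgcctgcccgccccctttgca
Hspd1: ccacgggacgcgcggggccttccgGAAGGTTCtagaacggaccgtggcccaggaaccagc
Hspa2: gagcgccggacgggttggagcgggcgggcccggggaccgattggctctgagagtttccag
The Hspa1a window lies at chr17:34972225-34972284 on the minus strand and the Hspa1b window at chr17:34959307-34959366 on the minus strand, and both read the same over these 60 bases. The Hspb1 window lies at chr5:135887798-135887857 on the plus strand, the Hspd1 window at chr1:55088036-55088095 on the minus strand and the Hspa2 window at chr12:76404302-76404361 on the plus strand. For Hspa2 the promoter table takes a start that lies inside the gene coordinates given above, and the window stands just before that start. The promoter windows of 300 bases, from 250 before to 50 after the start, were matched for 32 of the 40 list members. Of the 32, 11 (34.4%) held the pattern, against 5.63% of the 8921 tested genes with a promoter and 8.07% of all 27025 promoters. The 11 members with a match had a median log2 difference of 0.04, with a range of -0.61 to 0.81, and the 21 without one had a median of -0.06, with a range of -1.23 to 0.37. A match is a description of the letters and not a binding site.

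Cacybp, a co-chaperone that binds calcyclin, stood at 563 to 629 RPM in condition 2 and 702 to 887 RPM in condition 1 (-0.35 ± 0.12, unadjusted p = 0.0189, limma adjusted p = 0.929). Hspa4, an HSP110 chaperone, stood at 384 to 439 RPM and 449 to 622 RPM (-0.24 ± 0.13). Hspa12a, a distant member of the HSP70 family, stood at 3.26 to 6.78 RPM and 8.58 to 10.3 RPM (-0.79 ± 0.31). For the following chaperones the libraries of the conditions overlapped. Hspa8, the constitutive HSP70, had means of 3073 ± 483 and 3340 ± 36.8 RPM for conditions 2 and 1, and the cytosolic HSP90 gene Hsp90aa1 means of 3723 ± 381 and 3971 ± 327 RPM, both means over 2 lines with SD. Their log2 differences of -0.13 ± 0.13 and -0.09 ± 0.13 were within the spread between lines. Hsph1, an HSP110 chaperone, stood at 78.5 ± 10.1 and 95.5 ± 16.3 RPM, and the mitochondrial chaperonin gene Hspd1 at 763 ± 82.6 and 818 ± 106 RPM. Hspb1, a small heat shock protein, ranged from 7.82 to 23.8 RPM in condition 2 and from 8.27 to 17.8 RPM in condition 1, with GSCLC_2 the highest line. The HSP40 gene Dnajb1 differed by 0.16 ± 0.14, and Hsf1, the heat shock transcription factor, by 0.36 ± 0.18, with overlapping libraries. The second HSP90 gene, Hsp90ab1, was at 2023 to 2402 RPM in condition 2 and 2351 to 3304 RPM in condition 1 (-0.37 ± 0.14), where GSCLC_4 was the high line. Many of these genes have pseudogene copies, and 73.9% of the end words of Hspa8 and 54.5% of those of Hsp90aa1 occur elsewhere.

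Of 8 tested RNA-binding proteins that are induced by cold or splice in a cold-dependent way, 0 passed the test and 2 were lower in every condition 2 library (25%, against 4.01% of all genes). Cirbp, the cold-inducible RNA-binding protein, stood at 208 and 231 RPM in GSCLC_2 and 237 and 187 RPM in GSCLC_3, against 246 and 353 RPM in GSCLC_1 and 289 and 263 RPM in GSCLC_4. The groups did not overlap but came close to each other, and the log2 difference was -0.41 ± 0.12 with an unadjusted p = 0.00822 and an adjusted p = 0.929 by limma. Srsf3, a splicing factor, ranged from 647 to 704 RPM and from 713 to 825 RPM (-0.18 ± 0.11). Rbm3, the other main cold-inducible gene, was not lower, at 264 to 369 RPM in condition 2 and 221 to 324 RPM in condition 1 (0.17 ± 0.13). The GSC libraries ranged from 265 to 322 RPM for Cirbp, within the range of condition 1.

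**Figure D3:**
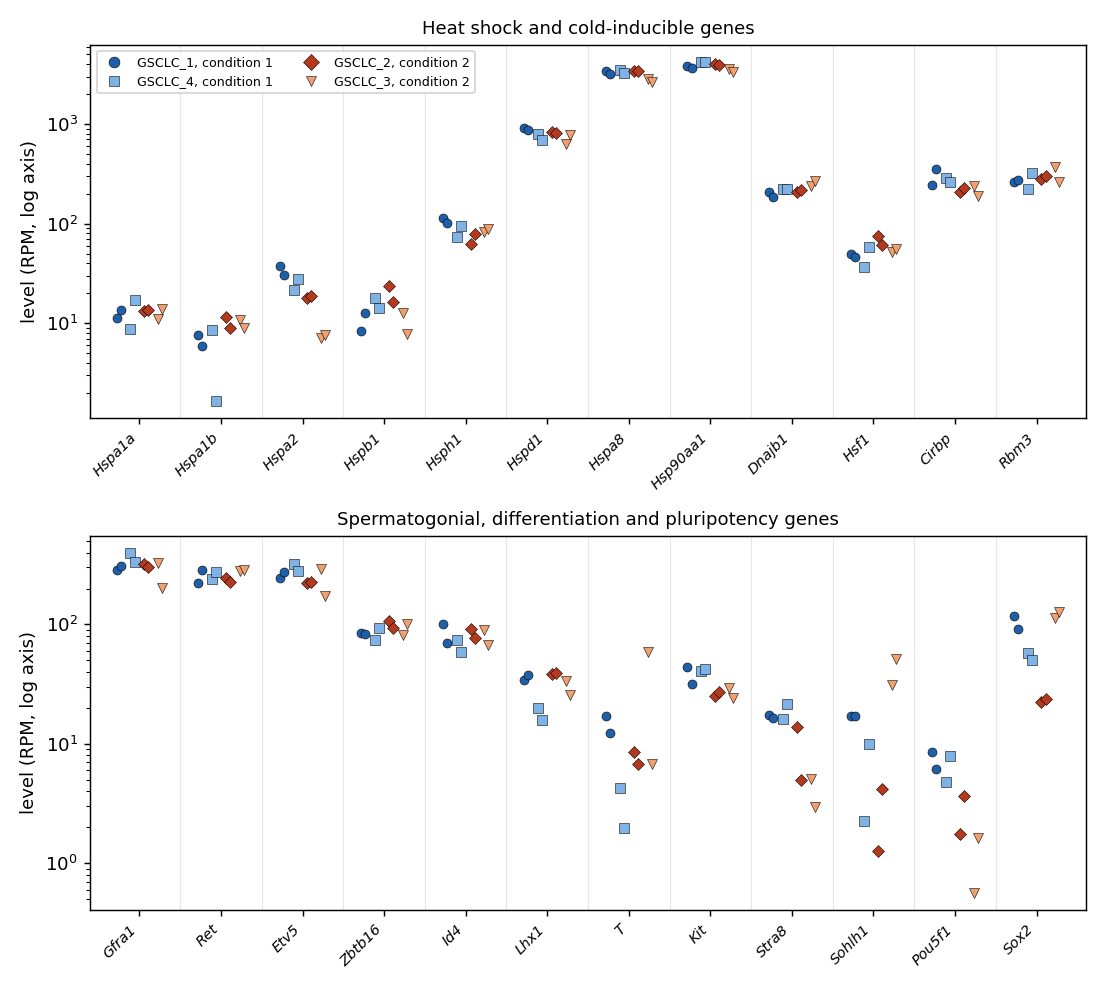
Level in RPM (log axis) of heat shock and cold-inducible genes (upper panel) and of spermatogonial, differentiation and pluripotency genes (lower panel), with 1 point per library. Hspa2, Cirbp, Kit, Stra8 and Pou5f1 are lower in all 4 condition 2 libraries and Hspa1b is higher, while T reaches 58.5 RPM in 1 library of GSCLC_3.

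The summed level of the endoplasmic reticulum stress genes was lower in every condition 2 library, and that of the antioxidant genes overlapped. Of 26 tested genes of the endoplasmic reticulum list 0 passed, and the summed level was 2566 to 2861 RPM in condition 2 and 2993 to 3133 RPM in condition 1, without overlap. The median log2 difference was -0.16, against -0.07 for all genes, and it was -0.08 with median-of-ratios scaling, against 0.0025 for all genes. The sums over the tested members also did not overlap with either of the other 2 scalings. Canx, the lectin chaperone calnexin, was the only member whose libraries did not overlap (3.85%, against 4.01% of all genes that were lower). It stood at 103, 100, 112 and 107 RPM in condition 2 and 136, 148, 135 and 165 RPM in condition 1 (-0.46 ± 0.14). Dnajb9, a co-chaperone induced by the unfolded protein response, stood at 43.7 to 65.7 RPM and 62.6 to 108 RPM with overlap. Calr, the other lectin chaperone, lies on chromosome 8 and went the other way, at 77.2 to 118 RPM and 56.7 to 91.7 RPM. Among 25 antioxidant genes 0 passed, and 1, the lipid peroxidase gene Gpx4, was higher in every condition 2 library (4%, against 1.32% of all genes). It stood at 276, 254, 205 and 208 RPM against 183, 200, 163 and 140 RPM (0.46 ± 0.18). Pseudogene copies share 65.1% of the end words of Gpx4. Of 22 p53 targets 0 passed and 1 was lower in every library (4.55%, against 4.01% of all genes). This was the apoptosis-linked gene Ei24, at 88.4 to 96.4 RPM against 100.2 to 113 RPM.

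Self-renewing spermatogonia were examined through their receptors, transcription factors and GDNF targets. Of 35 tested genes of undifferentiated spermatogonia 0 passed and 0 had libraries that did not overlap, and the median log2 difference was -0.07, the same as for all genes, and it was 0.02 with quantile normalisation and 0.01 with median-of-ratios scaling. Gfra1 ranged from 203 to 328 RPM in condition 2 and from 284 to 396 RPM in condition 1, and Ret from 226 to 288 RPM and from 221 to 285 RPM. The GDNF-induced transcription factor gene Etv5 stood at 222 and 227 RPM in GSCLC_2, 291 and 173 RPM in GSCLC_3, 247 and 274 RPM in GSCLC_1 and 320 and 279 RPM in GSCLC_4. One library of GSCLC_3 was above GSCLC_1, so the groups overlapped (-0.31 ± 0.13). Bcl6b, another GDNF target, had a mean of 73.5 ± 8.53 RPM in condition 2 and 78.9 ± 0.311 RPM in condition 1. Zbtb16, a repressor needed for stem cell maintenance, was at 95.7 ± 7.01 and 83.9 ± 0.108 RPM, and Id4, an inhibitor marking stem cells, at 81.2 ± 3.89 and 76.1 ± 13.1 RPM. Lhx1 separated the lines rather than the conditions, with 15.8 and 19.8 RPM in GSCLC_4 and 25.9 to 39.1 RPM in the other 3 lines. Foxc2, a factor of stem cell quiescence on chromosome 8, differed by 0.44 ± 0.20 with overlap.

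T, the mesodermal T-box factor that spermatogonia in culture express under GDNF, was high in 1 library. It stood at 58.5 RPM in GSCLC_3 replicate 1 and at 6.74 RPM in replicate 2, against 8.52 and 6.78 RPM in GSCLC_2, 17.1 and 12.3 RPM in GSCLC_1 and 4.26 and 1.98 RPM in GSCLC_4. The log2 difference of 0.79 ± 0.67 was 0.06 without GSCLC_3 replicate 1 and 1.53 without replicate 2. Nanos2, an RNA-binding protein that keeps spermatogonia undifferentiated, ranged from 5.39 to 15.9 RPM in condition 2 and from 5.26 to 22.1 RPM in condition 1. Its difference of -0.08 ± 0.34 turned to 0.04 with quantile normalisation. Of 10 receptors for the growth factors of the medium 0 passed and 0 were without overlap, and their sum was 811 to 924 RPM and 785 to 937 RPM.

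Among genes of spermatogonial differentiation Stra8 and Kit were lower in every condition 2 library, and whether the summed level of the list overlapped turned on the scaling. The summed level was 910 to 1001 RPM in condition 2 and 1045 to 1191 RPM in condition 1 without overlap, while the GSC libraries ranged from 1037 to 1181 RPM. Over the 18 tested members the sums overlapped with median-of-ratios scaling, at 910 to 1034 and 975 to 1174, and with quantile normalisation, at 920 to 1016 and 1007 to 1188, 2 alternatives added after the sums in RPM were seen. Of 18 tested members 0 passed, 2 were lower in every library (11.1%, against 4.01% of all genes) and 1 was higher (5.56%, against 1.32%). The median log2 difference was -0.18, against -0.07 for all genes, and -0.10 with median-of-ratios scaling, against 0.0025 for all genes. With the replicates numbered 1 alone the median was -0.02, and with those numbered 2 alone it was -0.36.

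Stra8, the retinoic acid target that opens the way to meiosis, lies on chromosome 6 at 34920163 to 34939344 (GRCm38). It stood at 13.8 and 4.96 RPM in GSCLC_2 and 5.09 and 2.96 RPM in GSCLC_3, against 17.4 and 16.3 RPM in GSCLC_1 and 16.3 and 21.4 RPM in GSCLC_4. All condition 2 libraries were lower, with GSCLC_2 replicate 1 nearest to condition 1. The line means were 6.70 ± 3.78 RPM and 17.9 ± 1.42 RPM (SD, n = 2 lines each), with a log2 difference of -1.47 ± 0.34, an unadjusted p = 0.00162 and an adjusted p = 0.929 by limma. Kit, the stem cell factor receptor of differentiating spermatogonia, stood at 25.3 and 27.1 RPM in GSCLC_2 and 29.1 and 24.3 RPM in GSCLC_3, against 43.7 and 31.7 RPM in GSCLC_1 and 40.8 and 42.6 RPM in GSCLC_4. The condition 2 libraries were within 5 RPM of each other and all below condition 1 (-0.56 ± 0.21). Leaving out each line in turn gave -1.93 to -0.998 for Stra8 and -0.64 to -0.48 for Kit. Sohlh1, a transcription factor of early differentiation, separated the lines within each condition. It stood at 1.25 and 4.17 RPM in GSCLC_2 and 31.1 and 51.5 RPM in GSCLC_3, and at 17.1 and 17.0 RPM in GSCLC_1 and 2.25 and 9.90 RPM in GSCLC_4.

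The meiotic prophase genes gave a sum of 2096 to 2228 RPM in condition 2 and 2094 to 2297 RPM in condition 1, and 0 of 25 passed. Only 1, the synaptonemal complex component Sycp1, was lower in every library (4%, against 4.01% of all genes). It stood at 51.5 to 67.6 RPM against 67.9 to 86.9 RPM (-0.35 ± 0.17), so that the groups nearly met. Sycp3, of the same complex, was low in GSCLC_2 alone, at 47.9 and 62.3 RPM against 91.0 to 131 RPM in the other lines. An antisense gene covers its whole 3′ end. Tex15, a germ cell factor of recombination and piRNA silencing, lies on chromosome 8 and ranged from 130 to 199 RPM and from 127 to 146 RPM. In the germ cell core list of 37 genes 0 passed and 2, Kit and Rhox5, were lower without overlap (5.41%, against 4.01% of all genes). Rhox5 was high in GSCLC_4 alone. Dazl differed by -0.09 ± 0.11 and Ddx4 by -0.02 ± 0.15, the latter turning to 0.06 with median-of-ratios scaling.

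Of 13 tested pluripotency genes 0 passed and 2, Pou5f1 and Esrrb, were lower in every condition 2 library (15.4%, against 4.01% of all genes). Pou5f1, which encodes Oct4, stood at 1.75 and 3.65 RPM in GSCLC_2 and 0.565 and 1.62 RPM in GSCLC_3, against 8.56 and 6.15 RPM in GSCLC_1 and 4.76 and 7.92 RPM in GSCLC_4. All condition 2 libraries were below condition 1, and all GSCLC libraries were below the GSC libraries, which had 15.9 to 35.5 RPM. The log2 difference was -1.52 ± 0.37, with an unadjusted p = 0.00195 and an adjusted p = 0.929 by limma, and 1 condition 2 value was under the floor of 3 reads. Esrrb, an orphan nuclear receptor of pluripotent cells, ranged from 2.51 to 5.09 RPM and from 5.94 to 8.27 RPM (-0.76 ± 0.38). Sox2 differed between the lines of each condition, with 22.3 and 23.7 RPM in GSCLC_2, 113 and 128 RPM in GSCLC_3, 118 and 92.2 RPM in GSCLC_1 and 57.6 and 50.1 RPM in GSCLC_4. The list's median of -0.31 was -0.004 without GSCLC_3.

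Of 28 tested Hox and developmental homeobox genes 0 passed and 4 were lower in every condition 2 library (14.3%, against 4.01% of all genes), among them Barhl2, Hoxc9 and Hoxb13. Hoxb13 stood at 10.5, 14.1, 10.7 and 9.97 RPM in condition 2 and 16.3, 15.8, 20.3 and 18.5 RPM in condition 1 (-0.61 ± 0.24). Hoxc9 ranged from 0.809 to 3.01 RPM in condition 2, near the limit that 3 reads set, and from 3.71 to 13.3 RPM in condition 1. The list's median of -0.27 rested on GSCLC_3 and was 0.13 without that line. The summed level was 298 to 589 RPM in condition 2, where the 2 libraries of GSCLC_3 had 437 and 298 RPM, and 510 to 582 RPM in condition 1. Of 20 genes of DNA methylation and demethylation 0 passed. In every library 1 was higher (5%, against 1.32% of all genes) and 1 lower (5%, against 4.01%). Trim28, a corepressor that protects imprints, was at 622 to 668 RPM and 415 to 591 RPM without overlap (0.31 ± 0.14), and Kdm2b, a CpG-binding demethylase, at 99.5 to 117 RPM and 122 to 132 RPM (-0.21 ± 0.14). Of 29 imprinted genes 0 passed, and Mest was the only one without overlap (3.45%, against 4.01% of all genes that were lower).

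Genes of translation and respiration had on balance a higher mean in condition 2, with GSCLC_3 the highest line and GSCLC_4 the lowest for the ribosomal proteins. Of 81 cytosolic ribosomal protein genes 0 passed, 72 had a higher mean in condition 2 (37.9% of all genes did), and 9 were higher in every library (11.1%, against 1.32% of all genes) while 0 were lower. The median log2 difference was 0.14, against -0.07 for all genes, and it was 0.03 with quantile normalisation and 0.22 with median-of-ratios scaling. By line it was -0.03 for GSCLC_2 against GSCLC_1 and 0.33 for GSCLC_3 against GSCLC_4. The sum was 138010 and 150260 RPM in GSCLC_2, 154270 and 166740 RPM in GSCLC_3, 143370 and 145690 RPM in GSCLC_1 and 129330 and 125800 RPM in GSCLC_4. GSCLC_2 and GSCLC_1 overlapped. Rps15 was at 364 to 373 RPM in condition 2 and at 156, 281, 311 and 358 RPM in condition 1 (0.48 ± 0.19, or 0.27 without GSCLC_4 replicate 1), and Rps26 at 3959 to 4320 RPM and 2808 to 3924 RPM. Rpl15, at 805 to 824 RPM in condition 2, was at 831 RPM in one library of GSCLC_1 and at 390 and 552 RPM in GSCLC_4. Rps16 was likewise low in GSCLC_4 alone, at 2476 and 2801 RPM, against 3561 to 4317 RPM in the other lines. Copies of ribosomal protein genes are common, and 50.4% of the end words of Rps15 occur elsewhere.

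Of 79 genes of the mitochondrial respiratory complexes 0 passed, 58 had a higher mean in condition 2 (73.4%, against 37.9% of all genes), and 3 were higher in every library (3.8%, against 1.32%). These were Ndufb7, Ndufa3 and Ndufs7, all subunits of complex I. Ndufb7, on chromosome 8, stood at 97.8 and 106 RPM in GSCLC_2 and 144 and 174 RPM in GSCLC_3, against 82.2 to 93.8 RPM in condition 1 (0.53 ± 0.20). Ndufs7 ranged from 273 to 304 RPM and from 197 to 273 RPM, the groups meeting when rounded. Uqcrh, a complex III subunit, was lower by its mean but overlapped, at 242 to 375 RPM and 319 to 468 RPM (-0.35 ± 0.12). The median of 0.10 was -0.001 without GSCLC_4. In glycolysis, Ldhb alone was higher in every library (4.35%, against 1.32% of all genes), at a low level of 7.01 to 9.91 RPM against 3.31 to 5.61 RPM. In the G2 and mitosis list 0 of 30 tested genes passed, and only the securin gene Pttg1 was higher in every library (3.33%, against 1.32% of all genes). It stood at 218 to 290 RPM against 200 to 218 RPM, the groups again meeting when rounded. The cholesterol synthesis genes had a median of -0.16 with 18 of 22 lower by the mean and 0 without overlap, and it was -0.01 without GSCLC_2. Sqle, which makes squalene epoxide, was at 88.5 to 129 RPM and 123 to 165 RPM, and Sc5d, a sterol desaturase, at 8.78 to 19.2 RPM and 17.0 to 24.4 RPM. Proteasome and DNA replication genes had medians of -0.002 and -0.02, with 0 of 38 and 0 of 36 members without overlap.

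The ERK response was examined because the medium's growth factors act through that kinase. Of 30 tested genes 0 passed and 1 was lower in every condition 2 library (3.33%, against 4.01% of all genes). This was Errfi1, a feedback inhibitor of the EGF receptor, at 57.7 to 64.7 RPM against 68.3 to 88.6 RPM (-0.33 ± 0.17). Etv4, an ETS factor downstream of FGF signalling, stood at 98.0 and 86.6 RPM in GSCLC_2, 70.7 and 50.4 RPM in GSCLC_3, 42.2 and 61.7 RPM in GSCLC_1 and 45.8 and 52.4 RPM in GSCLC_4. GSCLC_2 was the high line and GSCLC_3 overlapped with condition 1 (0.56 ± 0.22). Of 11 interferon response genes 0 passed, with Bst2, an antiviral membrane protein on chromosome 8, higher and the class I histocompatibility gene H2-D1 lower in every library. Each is 9.09% of the list, against 1.32% of all genes higher and 4.01% lower. Bst2 was at 32.6 to 41.6 RPM against 25.5 to 31.8 RPM and H2-D1 at 1.89 to 2.87 RPM against 3.51 to 6.62 RPM.

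**Figure D4:**
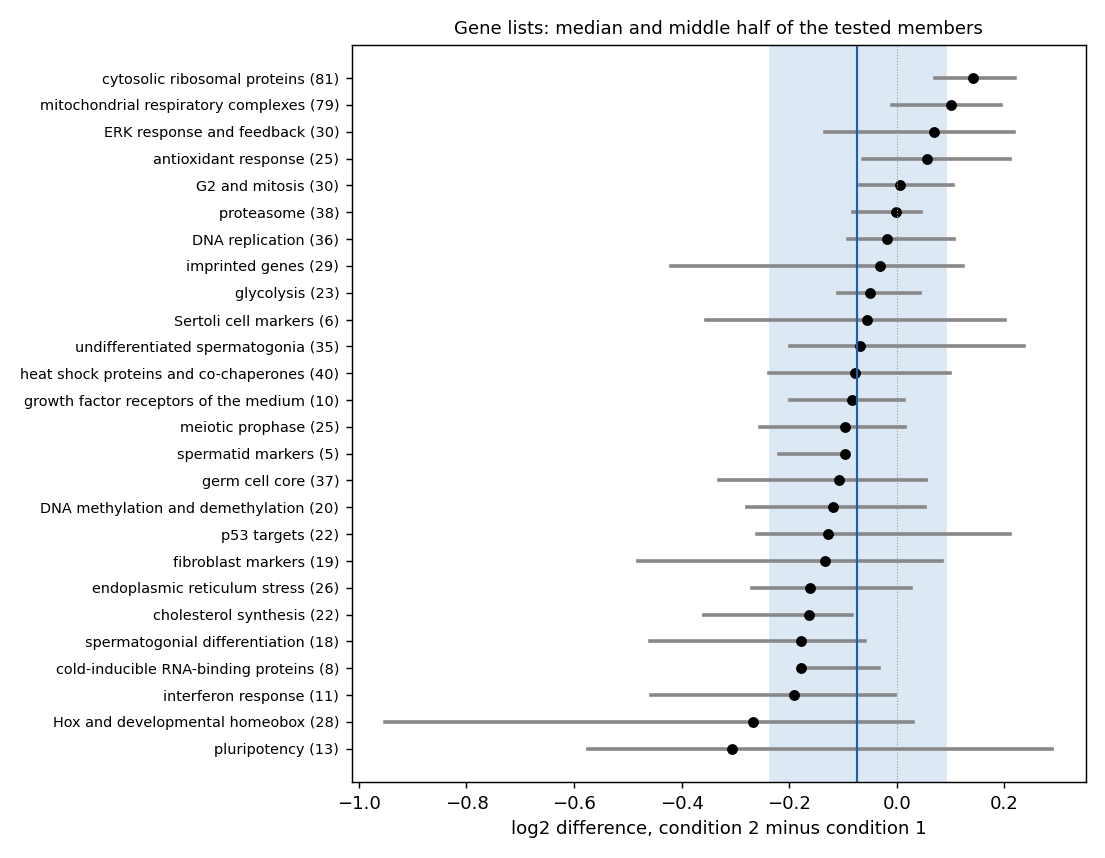
Median log2 difference, condition 2 minus condition 1, of the 26 gene lists with at least 5 tested members (number tested in brackets), with a bar over the middle quartiles of the members. The vertical line and band give the median of -0.07 and the middle quartiles of all 11453 genes, and the ribosomal list, at 0.14, lies highest.

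Chromosome 8 carried a large part of the genes that were higher in condition 2. It held 35 of the 151 genes that were higher in every library (23.2%) and 1 of the 459 lower ones. Of its 615 tested genes 5.69% were higher without overlap, against 0.254% to 1.66% on each other chromosome, and the median log2 difference was 0.18, against -0.17 to -0.04 elsewhere. That median difference came from line GSCLC_3, where the median deviation of chromosome 8 genes from the mean of all 6 lines was 0.37 and 0.33 in its libraries. In GSCLC_1, GSCLC_2 and GSCLC_4 it lay between -0.11 and 0. The deviation in GSCLC_3 was alike along the chromosome, at 0.29 to 0.40 in 7 bins of 20 Mb with 45 to 127 genes each. Between the 2 lines of condition 2, chromosome 8 genes differed by a median of 0.42, and between GSCLC_2 and GSCLC_1 by 0.003. Without the genes of chromosome 8 there were 116 higher and 458 lower genes without overlap among 10838, so 1.07% were higher. Copy number was not measured in these data.

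The distal part of chromosome 6 differed between lines without following the conditions. From 80 Mb onward, 4 bins of 20 Mb had median deviations of 0.27 to 0.35 in GSCLC_2 and 0.35 to 0.45 in GSCLC_4, and of -0.32 to -0.10 in GSCLC_3 and GSCLC_1. One line of each condition was high, and the median log2 difference of these bins was -0.17 to -0.07. With the genes of chromosome 8 and distal chromosome 6 centred by line, 129 higher and 474 lower genes had no overlap, and without them 113 and 456. The X chromosome held 31 of the 459 lower genes (6.75%, with 4.07% of the genes tested), and 3 of the 12 lower genes described above are X-linked.

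**Figure D5:**
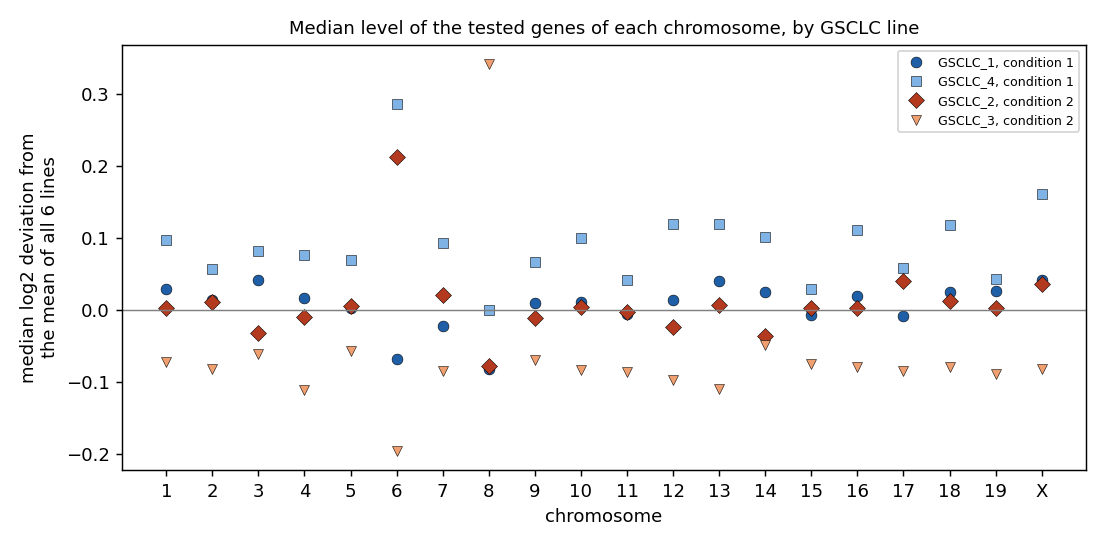
Median log2 deviation of the tested genes of each chromosome from the mean of all 6 lines, for the 4 GSCLC lines. GSCLC_3 reaches 0.34 on chromosome 8, GSCLC_2 and GSCLC_4 reach 0.212 and 0.285 on chromosome 6, where GSCLC_3 is at -0.196, and on all other chromosomes the lines lie between -0.11 and 0.16.

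Differences between the lines of one condition exceeded those between conditions for the 4 genes named per condition here, which were chosen by the size of the line difference. How many other genes did so was not counted. In condition 2 the largest were Pycard, Gbp1, Epas1 and 0610031J06Rik. Pycard, the inflammasome adaptor ASC, stood at 81.5 and 77.5 RPM in GSCLC_2 and 0.283 and 0.809 RPM in GSCLC_3, with 20.0 to 51.5 RPM in condition 1. Epas1, the hypoxia-inducible factor HIF-2alpha, stood at 135 and 123 RPM in GSCLC_2 and 7.63 and 7.55 RPM in GSCLC_3, with 8.51 to 48.8 RPM in condition 1. The 2 lines of condition 2 thus lay on either side of condition 1 for both genes. 0610031J06Rik had 57.4 to 60.2 RPM in GSCLC_2 and 2.26 to 5.93 RPM in GSCLC_3, and Gbp1, an interferon-induced GTPase, had 1.3 RPM or less in GSCLC_2 and 19.8 to 39.6 RPM in GSCLC_3.

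In condition 1 the largest were Gbp1, Rhox5, Gsta3 and Trp53. Gbp1 was listed at 0 in both libraries of GSCLC_4 and stood at 24.0 and 16.8 RPM in GSCLC_1. Gsta3, a glutathione transferase, was at 29.6 and 27.4 RPM in GSCLC_4 and 0.856 and 1.42 RPM in GSCLC_1, and in condition 2 it was high in GSCLC_2 as well, at 21.1 and 13.8 RPM. Trp53, the p53 tumour suppressor gene, stood at 1.00 RPM in GSCLC_4 replicate 1 and 59.7 RPM in replicate 2, with 68.2 to 104 RPM in the other 6 libraries. Its log2 difference of 1.46 ± 0.70 rests on that library. When line GSCLC_1 was left out, Trp53 was the 1 gene that limma called (adjusted p = 0.00812), with the remaining condition 1 line assumed to vary like the others. When GSCLC_2 was left out 9 genes were called, among them AU022751 and Gm14511 (adjusted p = 0.000136 by limma for both), which are low in GSCLC_3.

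The differences between conditions varied with abundance. The median log2 difference was -0.11 among 4105 genes under 20 RPM, -0.08 among 5060 genes of 20 to 100 RPM, -0.04 among 2035 genes of 100 to 500 RPM and 0.07 among 253 genes over 500 RPM. In the last group 5.14% were higher without overlap and 1.58% lower, the reverse of the order in the other 3 groups. The GSC lines, which had no period at either temperature in a reconstituted testis, lay nearer to condition 1 for 84 of the 151 higher genes (55.6%) and for 239 of the 459 lower genes (52.1%), against 50.4% of all genes. Of the 151 higher genes 32 had a GSC mean above both conditions and 43 below both, and of the 459 lower genes 116 and 91. Among all 11453 genes tested these counts were 4109 and 4450. The chosen genes have a gap between the conditions by selection, which bears on their counts.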

How the data were processed

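SC3-seq libraries of 12 mouse cultures (4 of each GSCLC condition and 4 of GSC lines) were read on a SOLiD 5500XL, per the labels' protocols. The authors deposited one table of RPM values, scaled to a common total, with 1 column per library. The submitters' processing notes list cutadapt 1.3, TopHat 1.4.1, Cufflinks 2.2.0 and the mouse genome mm10 (GRCm38) without roles, and filters and use of strand are not given there. Some values are fractions far below 1 read, so reads could not be recovered as counts and no count model was run.

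A gene was kept where 2 or more of the 8 GSCLC libraries reached 5 RPM. Values were taken as log2(RPM + 1) and averaged per line. Limma 3.58.1 in R 4.3.3, with a mean-variance trend, was fitted to the 6 lines in 3 groups (3 residual degrees of freedom before moderation), two-sided, with Benjamini-Hochberg adjustment over all 11453 genes at 0.05. An exact permutation test of 2 lines against 2 cannot go below p = 0.333 and was not used. Single lines were compared by limma on single libraries. Replicate numbers were not used to pair samples: same-numbered replicates of different GSCLC lines had correlated deviations (r over 0.1) in 2 of 6 pairs. The fits were tested on simulated data.

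Named genes were, per direction, the 12 with the largest log2 difference among genes without overlap and with at least 20 RPM in the higher condition; up to 4 members per list by smallest p, of which those with an unadjusted p under 0.05 are given; the 4 with the largest difference between the lines of a condition; and a fixed set of temperature and germ cell genes. List members without overlap and genes called in 3 of 4 line contrasts were also named, a choice made after their values were seen. A few genes that these rules name are not reported here. The comparison and the 28 gene lists were chosen with earlier results of these data known. Lists are described by counts and medians and have no test.

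Coordinates and promoters are from RefSeq on GRCm38.p6. Shared 3′ ends were searched with 50-base words over the last 300 bases of GENCODE transcripts for 85 of 87 named genes. Alternatives were other pseudocounts (0.5 and 5 RPM), filters and scalings, GSCLC lines alone, no trend, single libraries with and without a replicate block, 1 replicate number alone, each line or library left out and, added after chromosome medians were seen, centring or leaving out chromosome 8 and chromosome 6 from 80 Mb on. Figures were drawn with matplotlib 3.10.9 in Python 3.11.15.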

Additional observations from a re-analysis of the deposited data

Results flagged for a closer look

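In 102 groups of 4 libraries (51 named genes in 2 conditions), the gap between the most extreme library and its neighbour was compared with the whole range of the group. Dixon's limit was passed in 6 groups (5.88%). The limit's rate of about 1 in 20 holds for independent values, while each group holds 2 lines with 2 culture replicates each. Part of the genes was also chosen because these libraries did not overlap. The share of 5.88% therefore cannot be set against a chance rate, and the groups are only described. Cnih4 passed in both conditions, in condition 1 because GSCLC_4 replicate 1 stood at 44.3 RPM against 153 to 190 RPM (gap over range 0.85), and in condition 2 because GSCLC_2 replicate 1 stood at 200 RPM against 221 to 224 RPM (0.88). The other 4 groups were all in condition 2. Smg5 was low in GSCLC_2 replicate 1, at 85.2 RPM against 96.0 to 97.0 RPM (0.922). Zfp414 was low in GSCLC_3 replicate 1, at 22.9 RPM against 31.3 to 32.6 RPM (0.881). T was high in GSCLC_3 replicate 1, at 58.5 RPM against 6.74 to 8.52 RPM (0.898). Gfra1 was low in GSCLC_3 replicate 2, at 203 RPM against 305 to 328 RPM (0.845).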

How the results depend on the processing

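The comparison of conditions called 0 genes in all alternatives but 3: 1 gene with the replicates numbered 2 alone (Pcdhgb6), 1 without line GSCLC_1 (Trp53) and 9 without line GSCLC_2. Fewer samples enter each of these fits, and a line left alone was assumed to vary like the others. Single libraries with a replicate block also gave 0 calls between conditions, with a smallest adjusted p of 0.599 by limma. Genes lower in all 4 line contrasts numbered 1 with quantile normalisation and 0 otherwise.

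Counts of genes without overlap moved with the scaling, to 227 higher and 302 lower with quantile normalisation and to 269 and 280 with median-of-ratios scaling. They rose where fewer libraries had to separate, by construction. With replicates 1 alone they were 3526 in all (1419 and 2107), with replicates 2 alone 3601 (976 and 2625), without GSCLC_1 3091 (812 and 2279), without GSCLC_2 3015 (952 and 2063), without GSCLC_3 2222 (865 and 1357) and without GSCLC_4 1808 (637 and 1171). Leaving out single libraries gave 877 to 1146 in all, 227 to 308 higher and 618 to 852 lower. The median-of-ratios shift of the median gene was under 0.1 on the log2 scale.

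The 12 genes per direction kept their direction in every alternative run. Their choice without overlap fixes this in advance wherever the RPM values are unchanged, so it lends them no support. Only the other scalings and the centring of chromosomes could have turned a sign. Some genes of the fixed set turned sign, and the cause was not tested. Most of them had small differences, while T, Sox2 and Lhx1 had larger ones and turned when a line was left out. The log2 differences were 0.0375 for Nanos2 with quantile normalisation, 0.0568 for Ddx4 with median-of-ratios scaling and -0.0189 for Dnajb1 with chromosomes centred. With replicates 1 alone they were 0.49 for Bcl6b, 0.44 for Nanos2 and 0.0079 for Ddx4, and with replicates 2 alone -0.13 for Hspa1a, -0.22 for Hspb1, 0.046 for Hspd1, -0.0892 for Rbm3 and -0.14 for Ret. Without GSCLC_1 they were -0.16 for Hspb1 and 0.0344 for Hspd1, and without GSCLC_2 -0.33 for Hspb1, 0.0741 for Ddx4 and 0.68 for Sox2. Without GSCLC_3 they were 0.0325 for Hspa8, 0.0102 for Hsp90aa1, 0.0145 for Hspd1, -0.11 for Ret, 0.31 for Nanos2 and -1.60 for Sohlh1. Without GSCLC_4 they were -0.0596 for Id4, -0.0758 for Lhx1, -0.19 for T, 0.13 for Nanos2, -0.61 for Sohlh1 and 0.0431 for Ddx4. Leaving out single libraries gave -0.0286 to 0.29 for Hspb1, -0.0652 to 0.12 for Ret, -0.0507 to 0.006 for Ddx4, -0.49 to 0.19 for Bcl6b, -0.0175 to 0.24 for Id4, -0.55 to 0.39 for Nanos2, -0.25 to 0.63 for Sohlh1 and -0.16 to 0.28 for Hspa1a. Values under 0.709 to 0.989 RPM rest on fewer than 3 reads, and whether depth hid small differences was not tested.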
